A study of Mus musculus with 4 samples.

Results

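Signaling by vascular endothelial growth factor (VEGF) and the angiopoietins was followed through 10 genes of the 31053 measured: the receptor genes Flt1 and Kdr, the co-receptor genes Nrp1 and Nrp2, the ligand genes Vegfa, Vegfb, Vegfc and Pgf, the Tie2 receptor gene Tek and its ligand gene Angpt2. The 10 genes were named by their symbols, and their level and the share of cells holding them were read in each library across cell classes gated on marker genes. None of the 10 is a gate marker, so their levels between classes were not set by the gate.

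VEGF-A acts on endothelial cells (EC) through VEGFR2, the product of Kdr, which carries most of the mitogenic and permeability signal. VEGFR1, the product of Flt1, binds VEGF-A, VEGF-B and placental growth factor (the product of Pgf) with high affinity and weak kinase activity, and its soluble form acts as a trap for VEGF. Neuropilins 1 and 2 are co-receptors shared by VEGF and the class 3 semaphorins. VEGF-C acts mainly on VEGFR3, the product of Flt4, and on VEGFR2. Tie2, the product of Tek, is held active in resting vessels by angiopoietin 1, and angiopoietin 2 (Angpt2) can oppose that signal. In brain, astrocytes and the choroid plexus epithelium are known sources of VEGF-A, and vessels with fenestrae, as in the choroid plexus, depend on it.

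Brain vascular-associated cells (BVACs), captured with beads against the endothelial surface protein CD31 after mechanical and enzymatic dissociation, were sequenced with 10x Genomics 3′ v3.1 chemistry, which counts each captured mRNA molecule once by its unique molecular identifier (UMI). All mice were male WT C57BL/6, 12 to 14 weeks old. In chronic social defeat (CSD) a mouse lived for 14 days in the cage of an aggressive CD-1 resident, behind a perforated partition. The partition was removed for 5 minutes a day. Each home cage (HC) mouse was also housed for 14 days beside a CD-1 mouse, but with the partition always in place. Each condition had 2 libraries, and each library pooled the cells of 4 mice, so n = 2 libraries per condition and single mice cannot be told apart. The comparison asks whether repeated social stress alters these genes in vascular cells.

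The libraries held 27297599 to 30361474 UMIs each, and 14415 barcodes passed as cells, 2553 (CSD library 2) to 4934 (HC library 2) per library, with a median of 1408 to 2357 UMIs. Libraries shared 0 to 9 cell barcodes per pair. CSD library 2 stood apart: 32.6% of its UMIs lay in cells against 51.8% to 56.8% in the others, and its composition over genes differed most from the rest. A cell entered a class when it held at least 3 of that class's markers and 3 times as many UMIs of them as of the next class's. This gave 4732 EC, of which 3826 were capillary EC, 217 arterial EC and 75 venous EC, with 4376 microglia, 1668 choroid plexus cells, 486 arterial smooth muscle cells (SMC), 468 pericytes, 309 astrocytes, 183 ependymal cells and 62 T cells. In capillary EC all 8 EC markers were present, with a summed level of 18864 to 21269 CPM (UMI counts of a gene scaled to the same total in every class and library), while astrocyte markers summed to 349 to 667 CPM and choroid plexus markers to 112 to 508 CPM. Another 9 classes held under 10 cells in at least 1 library and were not tested, so their values are a description. RNA set free during dissociation was read in barcodes with at most 100 UMIs, and its level is given beside the results.

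The promoters of Flt1, Kdr and Tek are shown because these 3 genes shared an endothelial pattern in the data. Each is RefSeq sequence of GRCm38.p6 on the minus strand for Flt1 (chr5:147725962-147726261) and Kdr (chr5:75978406-75978705) and on the plus strand for Tek (chr4:94739039-94739338), from 250 bases before to 50 bases after the annotated start. Capitals mark GGAA on either strand (written TTCC on the other), the core letters to which ETS factors bind.
Flt1: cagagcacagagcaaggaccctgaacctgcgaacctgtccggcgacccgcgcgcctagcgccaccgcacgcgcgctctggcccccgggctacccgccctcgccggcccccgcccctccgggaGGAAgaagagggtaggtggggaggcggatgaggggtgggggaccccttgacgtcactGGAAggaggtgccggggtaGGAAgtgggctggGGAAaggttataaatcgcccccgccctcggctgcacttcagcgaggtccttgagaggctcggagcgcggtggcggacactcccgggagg
Kdr: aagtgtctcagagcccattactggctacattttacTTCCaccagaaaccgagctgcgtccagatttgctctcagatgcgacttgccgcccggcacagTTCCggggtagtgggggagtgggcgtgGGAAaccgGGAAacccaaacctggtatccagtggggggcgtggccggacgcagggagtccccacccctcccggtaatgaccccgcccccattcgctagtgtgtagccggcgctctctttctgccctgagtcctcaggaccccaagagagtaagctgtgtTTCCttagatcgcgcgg
Tek: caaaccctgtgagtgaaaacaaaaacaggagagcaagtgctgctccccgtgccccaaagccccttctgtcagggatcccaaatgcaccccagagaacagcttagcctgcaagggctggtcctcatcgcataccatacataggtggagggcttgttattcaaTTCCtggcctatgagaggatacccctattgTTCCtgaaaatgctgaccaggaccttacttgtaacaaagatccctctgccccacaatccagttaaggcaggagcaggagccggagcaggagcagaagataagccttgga
The 300 bases held 4 GGAA in Flt1, 5 in Kdr and 2 in Tek. Of 32851 promoters of the same length 96.0% held at least 1, with a median of 3, so the 3 windows lay within the usual range. A window was found for 9 of the 10 genes. The hypoxia letters ACGTG or GCGTG, searched on both strands, were present in 43.8% of all promoters, with 2 matches in the window of Kdr, 1 in that of Flt1 and 0 in that of Tek.

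**Figure D1:**
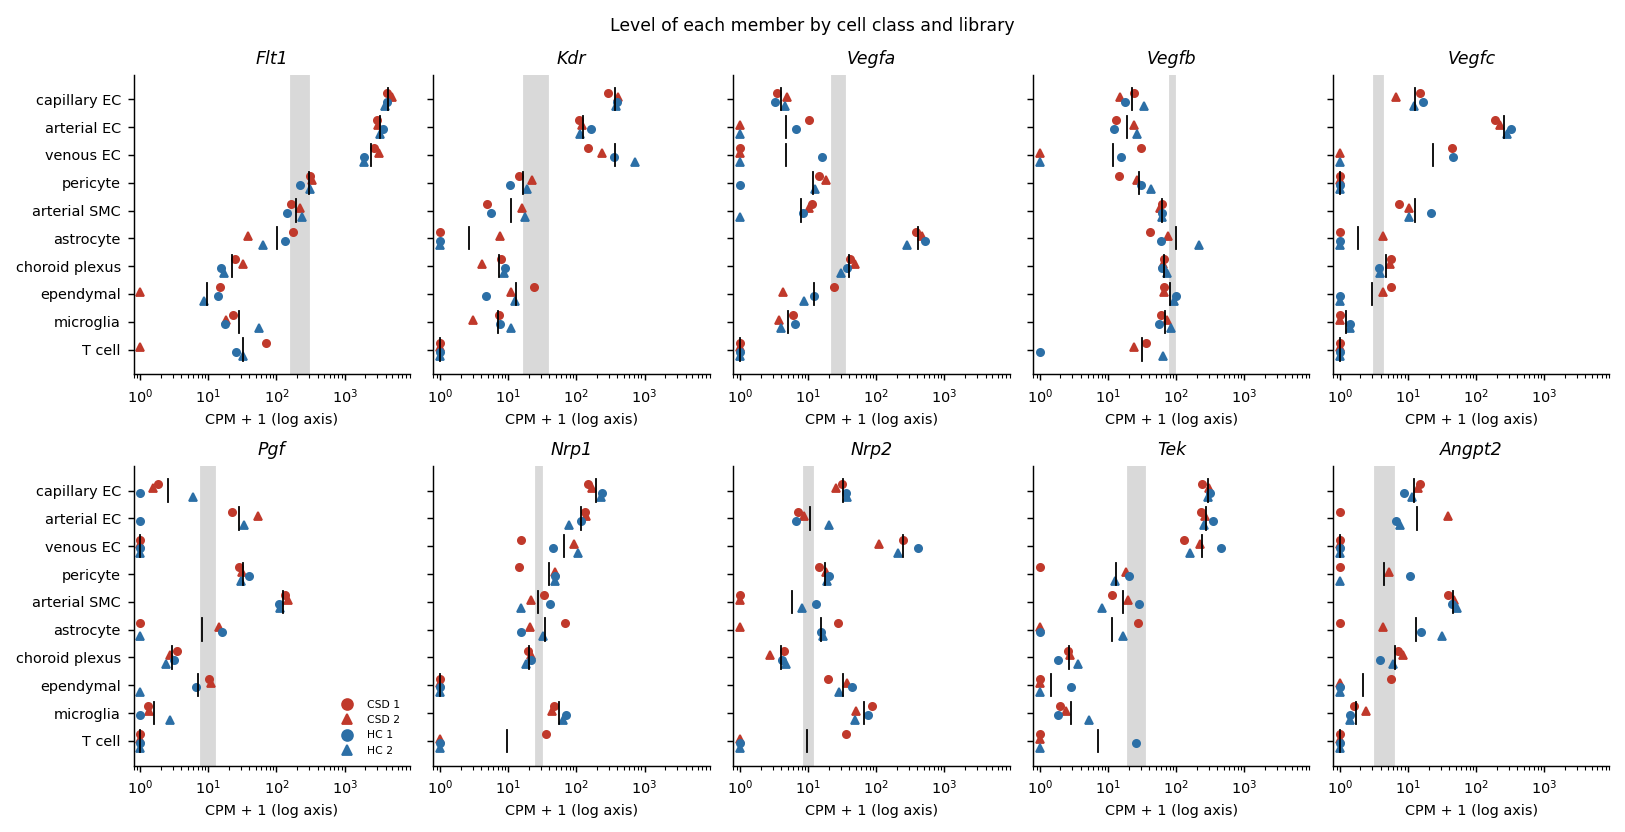
Level of each of the 10 genes (CPM + 1, log axis) in the 10 classes with at least 10 cells in every library. Points are libraries (red CSD, blue HC, circles library 1, triangles library 2), black bars the mean of 4 libraries, and the grey band the range of free RNA. Flt1, Kdr and Tek sat far to the right in EC, Vegfa in astrocytes, Vegfc in arterial EC and Pgf in arterial SMC.

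Flt1 (chr5:147561604-147726011, minus strand, GRCm38) was an endothelial gene in these data. In capillary EC it read 4166 and 4956 CPM in the CSD libraries and 4138 and 3898 CPM in the HC libraries (4290 ± 460, SD, n = 4). All 4 libraries lay above every library of arterial EC (3267 ± 276 CPM), whose range overlapped that of venous EC (2448 ± 615 CPM). EC held 82.4% ± 3.21 of the Flt1 UMIs of all cells (SD, n = 4). With each cell thinned to 500 UMIs, so that depth is equal, 3294 of 3826 capillary EC (86.1%, exact 95% interval 85.0 to 87.2) held a Flt1 UMI, against 1.30% of microglia and 0 of 62 T cells, which allows up to 4.84% of cells with a UMI at that depth and sets no limit on cells expressing the gene. Exact intervals of pooled cells, here and below, cover counting error only and not the spread between libraries. Without thinning the shares were 96.8%, 4.04% and 4.84%, at median depths per library of 873 to 1509 UMIs in capillary EC, 1866 to 5028 in microglia and 1147 to 3772 in T cells. The 3′ reads do not separate the soluble from the membrane form of VEGFR1.

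Among the tested classes outside EC, Flt1 was highest in pericytes, the mural cells of capillaries, with 313 and 334 CPM in CSD and 222 and 311 CPM in HC. Free RNA carried Flt1 at 163 to 302 CPM, so level alone does not separate pericytes from it. Set against the 8 EC markers the classes differed. These are gate markers, which limits their UMIs in classes outside EC but not in free RNA and can raise the ratio there. The part of that limit in the ratios was not tested. Free RNA held 17.1 Flt1 UMIs per 100 EC-marker UMIs (16.7 to 18.6 by library) and capillary EC 21.4, while arterial SMC (19.4) and choroid plexus cells (13.6) ran across the free RNA range. Microglia held 26.8, with every library (23.0 to 29.9) above free RNA. Pericytes held 56.0 per 100 over all libraries, and their lowest library (41.7) lay above the highest of free RNA and of capillary EC (23.3). In the 45 cells gated as neurons the ratio was 73.0, on 65 Flt1 and 89 EC-marker UMIs, with a level of 423 to 923 CPM by library. HC library 1 gave 33 of these Flt1 UMIs. The astrocyte value of 44.0 rested on 37 Flt1 UMIs and ran from 17.4 to 118 between libraries, which overlaps free RNA. These ratios are descriptions with no test.

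**Figure D2:**
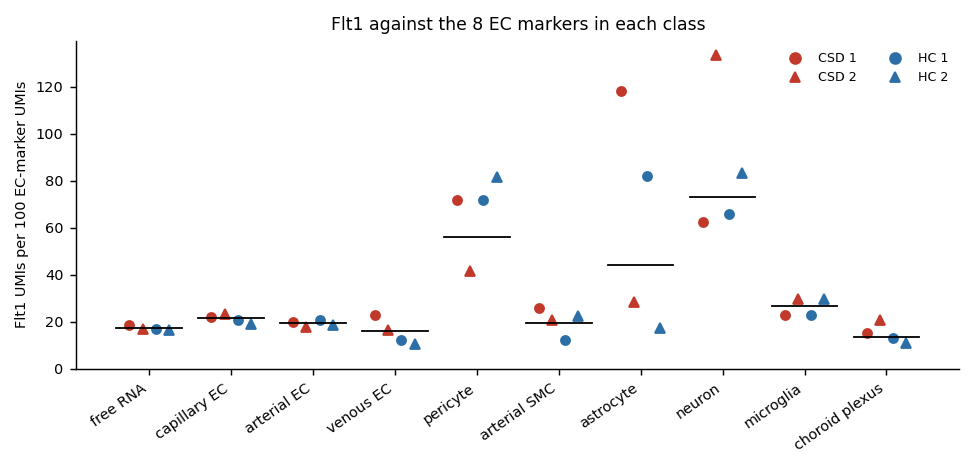
Flt1 UMIs per 100 UMIs of the 8 EC markers (linear axis from 0) in free RNA and 9 classes. Points are libraries and bars the pooled ratio. The 8 EC markers are also gate markers, which limits their UMIs in classes outside EC but not in free RNA. Pericytes and neurons lay far above free RNA in every library, microglia slightly above it, and arterial SMC and choroid plexus cells ran across its range.

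Kdr (chr5:75932827-75978458, minus strand) followed the same endothelial pattern but was lower in arterial EC. Capillary EC read 294 and 401 CPM in CSD and 397 and 378 CPM in HC. Arterial EC read 107 and 122 CPM in CSD and 162 and 110 CPM in HC, so that every arterial library lay below every capillary library. Venous EC ran from 146 to 732 CPM on 61 UMIs in all, a spread wider than the capillary range on both sides. Free RNA carried 15.7 to 37.3 CPM, and no other class with at least 10 cells per library had a mean above 15.6 CPM. Kdr was found in 17.7% of thinned capillary EC (exact 95% interval 16.5 to 19.0) against 0.366% of microglia, and in 35.6% against 1.39% without thinning.

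The balance between the VEGF receptor genes differed between arterial and capillary EC. Capillary EC held 10.3 to 14.2 Flt1 UMIs per Kdr UMI in the 4 libraries and arterial EC 22.4 to 30.0, with no overlap. Venous EC ran from 2.64 to 18.6, across the whole capillary range. Among 14 EC gated as fenestrated, by Plvap, Plpp1, Cd24a and Igfbp3, the ratio was 1.08 to 3.28. In these few cells Kdr reached 2332 CPM over all libraries (95% Poisson interval 1831 to 2927, 74 UMIs), while Flt1 (3938 CPM, 3278 to 4693) had libraries that overlapped those of capillary EC. Nrp1 was also high there, at 1796 CPM (1360 to 2327, 57 UMIs). CSD library 2 gave 1 of the 14 cells, and the intervals cover counting error only. In some classes the ratio split by condition. Capillary EC held 14.2 and 12.4 Flt1 UMIs per Kdr UMI in CSD and 10.4 and 10.3 in HC. Venous EC held 18.6 and 13.4 in CSD and 5.54 and 2.64 in HC. In fenestrated EC both CSD libraries also lay above those of HC (1.08 and 1.14). In arterial EC the conditions overlapped (28.3 and 25.5 in CSD, 22.4 and 30.0 in HC). Whether the ratio differs between CSD and HC was not tested.

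Tek (chr4:94739289-94874976, plus strand) showed no difference between EC classes that passed the test given further on. Capillary EC had 286 ± 32.6 CPM, arterial EC 272 ± 50.6 and venous EC 241 ± 148 (SD, n = 4), with overlapping libraries. EC held 81.4% ± 3.69 of its UMIs, and the next class, arterial SMC, read 15.7 ± 8.93 CPM, a mean below the free RNA level of 18.4 to 34.2 CPM. It was found in 13.9% of thinned capillary EC and in 3 of 4376 thinned microglia.

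Nrp1 (chr8:128358604-128503363, plus strand) and Nrp2 (chr1:62703285-62818695, plus strand) were highest in different ones of the tested classes. Nrp1 was highest in capillary EC, with 149 and 166 CPM in CSD and 237 and 229 CPM in HC, above all arterial EC libraries (78.0 to 137 CPM). Nrp2 was highest in venous EC, with 247 and 110 CPM in CSD and 412 and 209 CPM in HC on 55 UMIs, and every venous library lay above microglia (64.6 ± 18.3 CPM), the next class. Microglia alone held 52.0% ± 10.0 of all Nrp2 UMIs and EC 24.9% ± 4.50. The number of Nrp1 UMIs per Nrp2 UMI was 4.97 to 6.77 in capillary EC and 0.06 to 0.83 in venous EC. Border-associated macrophages (98 cells) carried both, with 282 CPM of Nrp1 (219 to 357) and 118 CPM of Nrp2 (79.4 to 170), and fibroblasts (57 cells) had 200 CPM of Nrp1 (141 to 274). Nrp1 was found in 0 of 183 ependymal cells, which allows up to 1.64% of cells with a UMI and sets no limit on cells expressing it. Free RNA carried 24.4 to 30.0 CPM of Nrp1 and 7.71 to 10.9 CPM of Nrp2. Nrp2 shares its strand with part of Gm37121 and Nrp1 with Mir1903, so reads there cannot be assigned with certainty.

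Among the ligand genes Vegfa (chr17:46016993-46032369, minus strand) was highest in astrocytes, with 387 and 464 CPM in CSD and 512 and 278 CPM in HC. No library of another tested class came near, as choroid plexus cells had 38.4 ± 7.73 CPM and capillary EC 3.04 ± 0.772 CPM (SD, n = 4), against 21.2 to 34.2 CPM in free RNA. Of thinned astrocytes 22.0% held Vegfa (exact 95% interval 17.5 to 27.0), against 1.98% of choroid plexus cells and 0.157% of capillary EC. Choroid plexus cells are, however, deep (11200 to 26560 UMIs at the median), and as captured here they held 63.5% ± 21.5 of all Vegfa UMIs against 15.3% ± 17.4 in astrocytes. Without thinning the shares of cells were 38.5% in astrocytes and 36.5% in choroid plexus cells. Oligodendrocyte precursor cells (OPC, 64 cells) had 162 CPM of Vegfa over all libraries (113 to 226) and fibroblasts 84.2 CPM (48.1 to 137). CSD library 2 gave the extreme values, with 32.1% of its Vegfa UMIs in choroid plexus cells and 41.4% in astrocytes, where the others had 70.4% to 80.8% and 5.39% to 7.92%, and it held 88 choroid plexus cells against 357 to 820 in the others.

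Vegfb (chr19:6982473-6987651, minus strand) marked no class. Means ran from 11.0 CPM in venous EC to 97.0 ± 80.6 CPM in astrocytes, where HC library 2 alone read 216 CPM and the others 40.0 to 73.5 CPM. Ependymal cells (80.1 ± 17.5 CPM), microglia (54.4 to 83.2), choroid plexus cells (65.4 ± 4.49) and arterial SMC (60.5 ± 2.06) overlapped their neighbours in order of level. Free RNA carried 80.5 to 93.6 CPM, above the mean of every tested class except astrocytes. The part of free RNA in the Vegfb level of single classes was not tested.

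Vegfc (chr8:54077606-54187096, plus strand) was highest in arterial EC among the tested classes. Arterial EC read 189 and 221 CPM in CSD and 324 and 279 CPM in HC on 192 UMIs, above every library of each tested class outside it. The next were venous EC (0 to 44.1 CPM on 6 UMIs), capillary EC (11.5 ± 4.35 CPM) and arterial SMC (11.5 ± 6.47 CPM), and free RNA carried 2.19 to 3.36 CPM. It was found in 11.1% of thinned arterial EC and 0.366% of thinned capillary EC, and in 45.2% and 1.28% without thinning. Among genes outside the gates, the levels most like those of Vegfc over the 10 classes were those of Smad6 (r = 0.940), Kank4 (0.906) and Lypd1 (0.906).

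Pgf (chr12:85166635-85177790, minus strand) was, among the tested classes, highest in arterial SMC, the contractile cells of arteries, with 132 and 144 CPM in CSD and 109 and 111 CPM in HC. These values lay above those of pericytes (31.3 ± 5.03 CPM) and arterial EC (26.8 ± 22.2 CPM). Arterial SMC held 50.8% ± 6.58 of its UMIs, and the 57 fibroblasts, too few to test, had a pooled 226 CPM (164 to 305, 43 UMIs), above every arterial SMC library. Angpt2 (chr8:18690263-18741562, minus strand) was also highest in arterial SMC among the tested classes, with 37.1 and 46.3 CPM in CSD and 43.5 and 52.1 CPM in HC, on 105 UMIs. Arterial EC overlapped this range through 1 library, CSD library 2, at 38.0 CPM on 5 UMIs. Capillary EC had 11.3 ± 2.83 CPM and free RNA 2.28 to 5.18 CPM. Choroid plexus cells read only 5.38 ± 1.94 CPM of Angpt2, and through their depth held 35.8% ± 12.2 of its UMIs. Mcph1 lies over Angpt2 on the other strand.

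**Figure D3:**
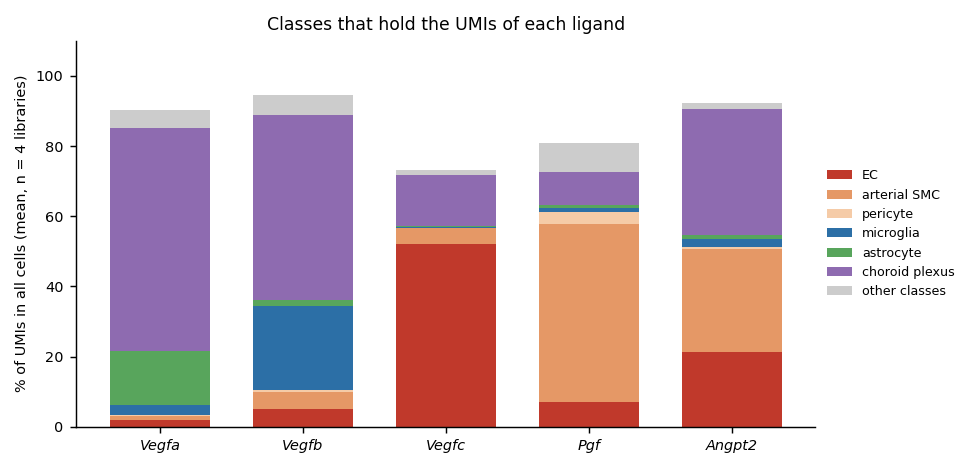
Share of each ligand gene's UMIs held by each class (stacked bars, % of the UMIs in all cells, mean of 4 libraries). The part of a bar missing to 100% lay in cells with mixed or few markers. Choroid plexus cells held most Vegfa UMIs (63.5%), EC most Vegfc UMIs (52.1%) and arterial SMC most Pgf UMIs (50.8%).

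Differences between EC classes were tested on UMI sums with each library as a block (edgeR quasi-likelihood test, Benjamini-Hochberg adjustment over all genes). Against capillary EC, arterial EC were lower in Flt1, Kdr, Nrp1 and Nrp2 and higher in Vegfc and Pgf, so 6 of the 9 members tested passed, where 17.4% of all 8670 genes did. Vegfc differed most, by 4.42 on the log2 scale (95% interval 3.98 to 4.86, adjusted p = 2.52e-28), higher in 4 of 4 libraries. Kdr was lower by −1.56 (−1.84 to −1.27, adjusted p = 6.30e-15) and Flt1 by −0.42 (−0.57 to −0.27, adjusted p = 9.35e-06), both in 4 of 4 libraries. Nrp1 differed by −0.69 (adjusted p = 0.00105) and Nrp2 by −1.82 (adjusted p = 0.00261, on 7 arterial UMIs). Without HC library 2 the Nrp1 difference was −0.47 and did not pass (adjusted p = 0.103), and without CSD library 1 that of Nrp2 was −1.59 (adjusted p = 0.0704). For Tek the difference was −0.09 with an interval of −0.34 to 0.15.

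Pgf was higher in arterial EC by 4.02 (2.49 to 5.54, adjusted p = 2.47e-05), on 19 UMIs and in 3 of 4 libraries. Arterial SMC markers, of which 7 of 8 had a UMI in arterial EC, summed there to 933 to 1544 CPM, against 84.5 to 190 CPM in capillary EC and 42825 to 47906 CPM in SMC themselves. The part of that RNA in the Pgf difference was not tested. Of 7 further receptor and ligand genes of the family 5 could be tested, and 0 were higher and 2 lower in arterial EC, namely Flt4, the VEGFR3 gene (−1.72, adjusted p = 5.6e-06), and Tie1, the orphan partner of Tie2 (−0.48, adjusted p = 0.022).

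Against capillary EC, venous EC differed in 3 of 7 members tested, where 3.76% of all 7928 genes did. Nrp2 was higher by 2.81 (2.14 to 3.48, adjusted p = 6.23e-14), in 4 of 4 libraries. Flt1 was lower by −1.02 (−1.43 to −0.62, adjusted p = 7.11e-05) and Nrp1 by −1.99 (−2.79 to −1.20, adjusted p = 7.18e-05, on 11 venous UMIs), both in 4 of 4 libraries. The median log2 difference over all genes tested was −0.27, and whether these values include a shift of that size was not tested. Kdr (−0.45, −0.95 to 0.06) and Tek (−0.38, −0.91 to 0.15) did not pass. Of the neuropilin partners Sema3c, a secreted ligand of both neuropilins, was lower in venous EC (−1.31, adjusted p = 1.4e-05) and in arterial EC (−1.70, adjusted p = 3.3e-21) than in capillary EC.

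**Figure D4:**
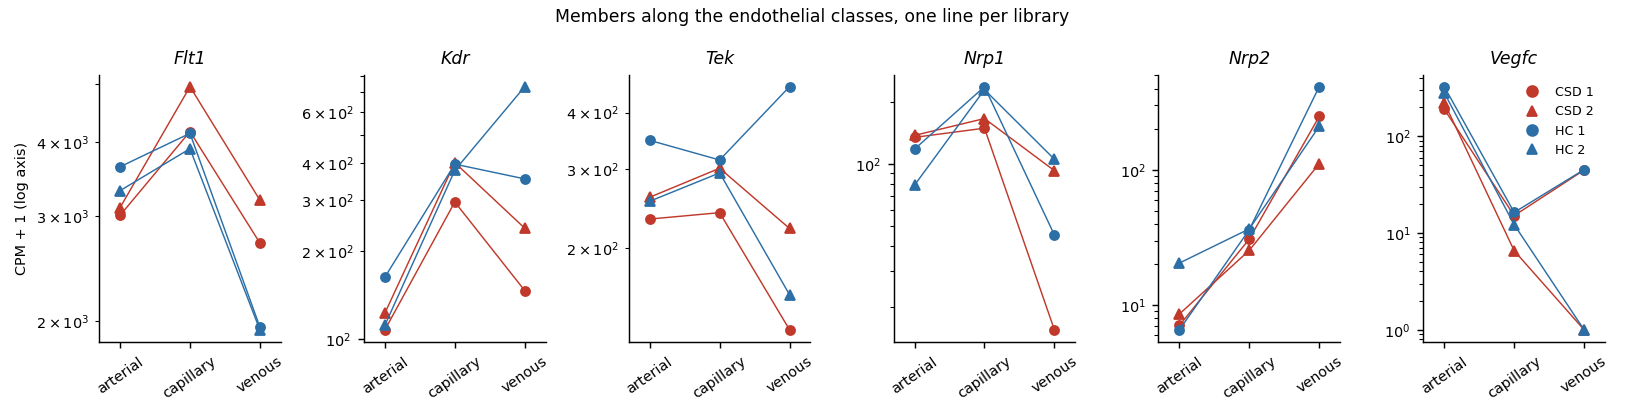
Levels (CPM + 1, log axis with its own range in each panel) of 6 genes in arterial, capillary and venous EC, with 1 line per library. Vegfc was lower in capillary than in arterial EC and Nrp2 was highest in venous EC in all 4 libraries, Flt1 was lower in venous than in capillary EC in all 4, and Tek showed no common slope.

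The other genes of the pathway are given beside the same background, 17.4% of genes called for arterial and 3.76% for venous against capillary EC. Of 24 tested signal transduction genes 3 were higher and 1 lower in arterial EC, a share near that background, among them Plcg2 (3.98, adjusted p = 2.8e-07), a phospholipase C, and its relative Plcg1, which was lower (−0.74, adjusted p = 0.01). Of 11 tested VEGF-responsive and tip cell genes 4 were higher and 3 lower in arterial EC. Those higher included Igfbp3 (3.48), Adamts1, a secreted protease (0.96), and Nr4a1 (0.88). Those lower were Nid2 (−1.32), Adm (−1.23) and Robo4, an endothelial guidance receptor (−0.83). Nr4a1 is also in the immediate-early list and Adm in the hypoxia list. Igfbp3 is also a gate marker of fenestrated EC. In venous EC 0 of 11 were higher and 3 lower, Dll4 (−3.71), a Notch ligand of arteries and tip cells, Pdgfb (−1.78), which recruits mural cells, and Unc5b, a netrin receptor. Unc5b had 0 UMIs in venous EC against 42.3 ± 9.72 CPM in capillary EC (adjusted p = 0.0053). Of 14 hypoxia genes 1 was higher and 4 lower in arterial EC. Ankrd37 (−2.36), Adm (−1.23) and Ndrg1 (−1.06) differed most among those lower. The HIF gene Epas1 was higher in arterial EC (0.51, adjusted p = 3.4e-07). In venous EC 1 of 14 was higher, the HIF gene Hif1a (1.07, adjusted p = 0.042), and 1 lower, Epas1 (−0.99, adjusted p = 0.00099). Hif1a read 229 ± 169 CPM in venous EC and 77.6 ± 2.13 CPM in capillary EC. Immediate-early and dissociation genes were higher in arterial EC for 11 of 15 and in venous EC for 1 of 15. Their part in the other differences was not tested.

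Pericytes and arterial SMC, both mural cells, differed in 3 of 5 members tested, where 42.6% of all 5918 genes did. Pericytes were lower in Angpt2 by −3.85 (−5.14 to −2.55, adjusted p = 1.88e-06, on 2 pericyte UMIs), in Pgf by −2.26 (−2.84 to −1.68, adjusted p = 4.70e-09) and in Vegfb by −1.28 (−1.97 to −0.59, adjusted p = 0.0018). Flt1 was above SMC in 4 of 4 libraries, at a log2 difference of 0.37 (0.04 to 0.69) that did not pass (adjusted p = 0.0637). With cells thinned to 500 UMIs it was 0.76 and passed (adjusted p = 0.0276). Of the 7 further receptor and ligand genes 3 could be tested, and 1 was higher and 2 lower in pericytes. Angpt1, the Tie2 agonist (−3.23, adjusted p = 7.9e-07), and Ptprb, a phosphatase gene (−0.86, adjusted p = 0.0017), were lower. Angptl4, an angiopoietin-like gene, was higher (2.64, adjusted p = 0.0015).

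Within single capillary EC the receptor genes were found together about as often as their separate shares give. Among thinned cells 16.0% ± 1.77 held both Flt1 and Kdr, where independence gives 15.3% ± 1.49 (SD, n = 4 libraries). Kdr and Tek were found together in 2.16% ± 0.50 against 2.51% ± 0.72, and Kdr and Nrp1 in 2.40% ± 1.03 against 1.87% ± 0.49. Within each library the share lay above independence for Flt1 with Kdr and for Kdr with Nrp1, and below it for Kdr with Tek. These differences were not tested.

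The genes whose mean levels over the 10 classes ran most like those of each member are given next (Pearson r of log2 CPM + 10, n = 10 classes from the same 4 libraries, as a description). Adgrf5 (r = 0.997), Ltbp4 (0.989) and Ptprb, the phosphatase that acts on Tie2 (0.984), were closest to Flt1. Grrp1 (0.990) was closest to Kdr, Acer2 (0.996) to Tek, Tmem184b (0.930) to Nrp1 and Atf6 (0.937) to Nrp2, with Icam1, a leukocyte adhesion molecule, next for Nrp2 (0.915). For the ligand genes the closest were Ephx2 (0.989) and the astrocyte gene Aldh1l1 (0.989) for Vegfa, Usp2 (0.951) for Vegfb, Rasl11a (0.987) for Pgf and Gyg (0.959) for Angpt2.

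Between CSD and HC no member passed the test in any of 11 classes. Over the 110 pairs of member and class, 52 had enough UMIs to be tested, and edgeR called 0 of them (adjusted p under 0.05). DESeq2 gave an adjusted p for only 43 pairs and called 0. By edgeR 6 of the 52 pairs and by DESeq2 3 pairs had an unadjusted p under 0.05. Over all genes and classes 4.99% of edgeR tests had one, a smaller share than that of the members. The classes share cells, since all EC include the EC classes. Flt1 could be tested in 8 classes and Vegfa and Pgf in 3 each. The share of all genes called was 0.456% in capillary EC, 0.0498% in all EC, 0.127% in arterial EC, 0.0943% in venous EC, 0.0605% in choroid plexus cells, 0.0395% in pericytes, 0.726% in astrocytes and 0.680% in T cells, and 0 of 9949 genes in microglia, of 6483 in arterial SMC and of 4785 in ependymal cells. With 2 libraries per condition the edgeR p-values rest on the spread between pooled libraries, estimated in large part from other genes of the class.

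Nrp1 in capillary EC was the lowest p of the EC classes. The CSD libraries read 149 and 166 CPM and the HC libraries 237 and 229 CPM, without overlap, at a log2 difference of −0.52 (SE 0.16, 95% interval −0.85 to −0.18), which did not pass (edgeR, adjusted p = 0.234). It kept its sign with each library left out (−0.58 to −0.46) and was −0.31 in thinned cells. In all EC the difference was −0.49 (−0.81 to −0.17, adjusted p = 0.380), and in microglia, with 45.4 and 42.7 CPM against 68.7 and 62.6 CPM, it was −0.53 (−1.01 to −0.06, adjusted p = 0.9999). In arterial EC the order was the opposite, with 134 and 137 CPM in CSD and 117 and 78.0 CPM in HC (0.44, −0.26 to 1.13). In choroid plexus cells the Nrp1 interval was −0.42 to 0.42.

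Flt1 in choroid plexus cells read 23.7 and 31.4 CPM in CSD and 14.4 and 16.0 CPM in HC, at 0.78 (0.35 to 1.22, adjusted p = 0.489). These levels lie far under the Flt1 level of free RNA. EC markers, 8 of 8 with a UMI, summed in the same cells to 155 and 151 CPM in CSD and 111 and 149 CPM in HC, and their part in the difference was not tested. Without CSD library 1 the difference was 1.05, and without CSD library 2, the library that stood apart, it was 0.59. With at most 10% mitochondrial UMIs per cell it was 0.11. In capillary EC Flt1 read 4166 and 4956 CPM against 4138 and 3898 CPM, and the interval of its difference was −0.10 to 0.57.

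Vegfc in arterial EC read 189 and 221 CPM in CSD and 324 and 279 CPM in HC, without overlap, at −0.60 (−1.12 to −0.09, adjusted p = 0.614). Kdr in venous EC read 146 and 239 CPM against 353 and 732 CPM, on 10 to 24 UMIs per library, at −1.33 (−2.49 to −0.17, adjusted p = 0.469). In capillary EC, where Kdr is well counted, its interval was −0.47 to 0.26 and that of Tek −0.46 to 0.24. Vegfa in astrocytes had an interval of −0.96 to 1.10 and in choroid plexus cells of −0.00 to 0.77 (40.3 and 47.7 CPM in CSD, 36.4 and 29.2 CPM in HC, adjusted p = 0.9999). Pgf in arterial SMC had an interval of −0.16 to 0.77 and Angpt2 of −0.85 to 0.43.

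**Figure D5:**
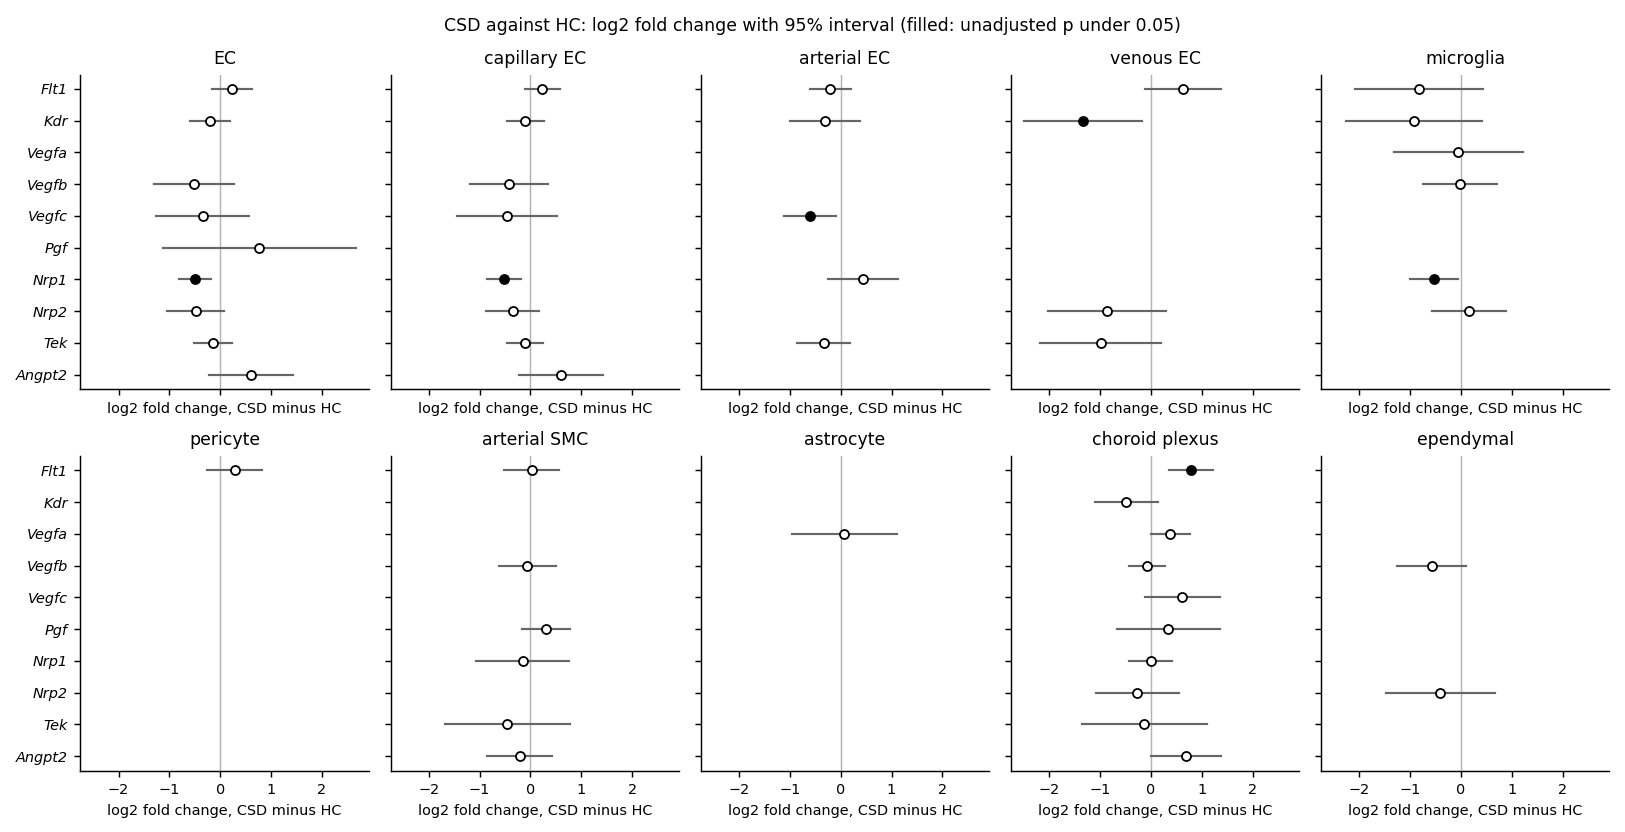
Log2 fold change of CSD against HC with its 95% interval (edgeR) for each member tested in 10 classes (in T cells none could be tested). Filled points have an unadjusted p under 0.05. None passed after adjustment, and the narrowest interval was that of Nrp1 in all EC (−0.81 to −0.17).

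Shares of cells were compared as well. After thinning, the CSD and HC libraries did not overlap for 20 of 83 pairs of member and class with a positive cell (24.1%), beside 24.9% over all genes in these classes. In capillary EC it was 4 of 10 members, beside 30.6% of genes. In capillary EC Flt1 was found in 85.7% and 90.8% of cells in CSD and 84.1% and 84.0% in HC, and Nrp1 in 8.91% and 9.63% against 12.7% and 10.2%. The exact permutation test over 4 libraries cannot go below p = 0.33, which both reached.

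Whether the CSD effect differed between EC classes was tested with an interaction term. None of 16 terms passed by edgeR (0.104% of genes called for arterial against capillary EC and 0.0631% for venous against capillary EC). An unadjusted p under 0.05 was found for 2 of the 16, a larger share than the 4.27% of all terms. For Nrp1 the effect in arterial EC exceeded that in capillary EC by 1.01 (0.35 to 1.67, adjusted p = 0.428), and for Flt1 it was below it by −0.40 (−0.66 to −0.14, adjusted p = 0.428). The intervals and p-values of these terms rest on a spread estimated from the genes tested together, not on that of the gene itself. Without CSD library 1 the Flt1 term was −0.56, and without CSD library 2 it was −0.25, each with a lone CSD library.

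Among the other genes of the pathway at most 1 per list and class was called between CSD and HC. The share of all genes called was 0.456% in capillary EC. In capillary EC 1 of 11 VEGF-responsive genes, Adamts1, rose from 299 and 300.04 CPM in HC to 558 and 502 CPM in CSD (0.88, SE 0.16, adjusted p = 0.028), and 1 of 14 hypoxia genes, Ddit4, a stress-induced inhibitor of mTOR signaling, rose from 116 and 107 to 228 and 187 CPM (0.95, SE 0.17, adjusted p = 0.034). The median log2 difference was 0.37 over the tested VEGF-responsive genes and 0.28 over the hypoxia genes, beside −0.00 over all genes. Immediate-early and dissociation genes, of which 1 of 15, Fosb, was called (0.79, adjusted p = 0.047), had a median of 0.59 in the same cells. Their part in these differences was not tested. None of 24 signal transduction genes, 5 further receptor and ligand genes or 6 neuropilin partners was called there. Their median log2 differences were 0.04, 0.17 and 0.25. In choroid plexus cells 1 of 15 immediate-early genes, Hspa1b, rose (1.16, adjusted p = 0.032), where 0.0605% of all genes were called. Its near-identical copy Hspa1a makes its counts uncertain. In astrocytes 1 of 6, Fos, fell (−2.26, adjusted p = 0.002), where 0.726% of all genes were called. Fos read 107 and 284 CPM there in CSD and 1362 and 540 CPM in HC, on 8 to 93 UMIs per library.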

How the data were processed

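Single-cell RNA sequencing of 4 libraries was analysed, 2 per condition. The authors deposited raw UMI counts, as whole numbers, for each gene and barcode, and the submitters' notes name Cell Ranger 4.0 and GRCm38, the matrix headers version 3.1.0. Gene identifiers matched GENCODE vM21 for 30934 of 31053 genes. Cells had at least 500 UMIs, at least 250 genes and at most 25% mitochondrial UMIs. No doublet caller was run, and cells without the required lead over the next class stayed out of the classes, while cells with some UMIs of other markers stayed in. EC classes needed 2 markers and a lead of 2 times. Gate limits were set after cell yields were seen and before levels of the members were compared.

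UMIs were summed per library and class and tested with edgeR 4.0.16 in R 4.3.3 (filterByExpr, TMM, glmQLFit, glmQLFTest, two-sided, threshold 0.05), with DESeq2 1.42.0 as an alternative. The CPM are on class totals. Exact and Poisson intervals and the floor of 3 counts cover counting error only. All 10 members are described. From the other lists, named genes were taken from the called genes furthest from 0, at most 3 a direction in a class. For likeness they were taken from the 3 genes with the highest r among those with at least 50 CPM in a class. Not all genes that met these rules are named. The members and lists were chosen with earlier results of these data known.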

Additional observations from a re-analysis of the deposited data

How the results depend on the processing

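No member was called between CSD and HC under DESeq2, RLE normalization, no low-count filter, the limits of 1000 UMIs, 10% mitochondrial UMIs or a complexity of 0.8, the stricter gate or thinning. With each library left out the number was 0 to 1, the 1 being Flt1 in choroid plexus cells without CSD library 1. A lone library in a condition was assumed to vary like the other pair. The titles number libraries 1 and 2 in both conditions without saying what a number marks, so they pair nothing. With the number as a replicate block 0 members were called, and the deviations of same-numbered libraries correlated at 0.066 in EC and 0.43 in microglia. The 12 calls between classes became 6 with cells thinned to 500 UMIs, where fewer members could be tested (12 against 21), and 9 to 13 elsewhere, 11 to 12 with a library left out. The direction turned for Tek between arterial and capillary EC (0.04 with the stricter gate, 0.04 thinned) and for Vegfb between venous and capillary EC (0.80 thinned), none of them called. Interaction calls numbered 0 with all libraries, and calls with a library left out are not weighed, since a condition then has a lone library. Pairs with shares of cells that did not overlap numbered 20, 18 to 21 under the other gates and depths, and 41 to 49 with a library left out, since 1 library against 2 overlaps less often. The class with the highest mean was kept for 8 to 10 of the 10 members. It moved for Kdr (to venous EC without CSD library 1, CSD library 2 or HC library 1, and with the stricter gate), for Tek (to arterial EC), for Nrp2 (to microglia with 1000 UMIs, where venous EC could not be tested) and for Vegfb (to ependymal cells without HC library 2). T cells could not be tested with the stricter gate.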
